A study of Sus scrofa with 2 samples.

Results

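The genes described here form a module of interferon response and antigen presentation genes in the pig endometrium, the lining of the uterus. They were taken by a symbol pattern that uses no measured value but was chosen with earlier results of these data known. By it, 40 of 26881 annotated features matched. Of these, 7 belong to the class I pathway, 5 to the class II pathway, 14 form a signalling group of STAT and IRF genes with IRF2BP2, a corepressor that binds IRF2, and 14 are antiviral effectors or genes that share only the symbol pattern. Another 16128 features carried an identifier in place of a symbol and could not match, and B2M, CD74, CIITA, NLRC5, TAP2, ISG15, IFIT1, BST2, RSAD2, XAF1, SLA-1, SLA-2 and SLA-3 were among the symbols sought that no feature carried.

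Single cells were profiled by 10x Genomics 3′ sequencing, in which each captured transcript is counted once through a unique molecular identifier (UMI). The embryo loss group (EL) was 1 Yorkshire sow that had an earlier abortion and then failed to conceive in 3 inseminations, and the implantation group (EIS) was 1 Yorkshire sow on day 30 after a successful insemination. Both sows were 3 years old and no treatment or allele is stated for either, and the day at which the EL tissue was taken is not given in the sources used here. Because 1 sow and 1 library stand for each condition, animal, stage, pregnancy and library cannot be told apart and no test across animals exists. Every interval is at 95% and covers counting error only.

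Interferons are secreted proteins that bind cell surface receptors and switch on STAT and IRF transcription factors, which in turn raise antiviral effectors and the antigen presentation machinery. Class I molecules present peptides cut by the proteasome and carried by the TAP transporter, and most cell types carry them. Class II molecules present peptides from endocytosed protein and are typical of macrophages, dendritic cells and B cells. In pigs the conceptus itself secretes interferon gamma and interferon delta around implantation, and the endometrium is known to respond with interferon-induced genes.

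After filtering and removal of likely doublets, 9864 EL cells and 8068 EIS cells remained, and 27 cell barcodes occurred in both libraries. Cell types were assigned per cell by marker genes, none of which is a member of the module. The gates held 4347 EL and 448 EIS epithelial cells not gated as ciliated, 1641 EL and 329 EIS ciliated cells, 165 EL and 366 EIS T or NK cells, and 77 EL and 366 EIS macrophage, monocyte or dendritic cells. Trophoblast-like cells, gated on pregnancy-associated glycoproteins and trophoblast transcription factors, numbered 801 in EIS and 0 in EL. All 12 trophoblast markers with a feature were detected in them, at a sum of 15422 CPM (UMI counts scaled to a common total per cell type). The gate selected cells on these same markers, so their sum is no separate evidence of identity. Epithelial markers summed to 4820 CPM in them and stromal markers to 3609 CPM. No gate took 3492 EL and 3474 EIS cells, and markers of several classes kept out a further 54 EL and 1174 EIS cells.

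Immune cells held most of the highest levels: of 37 members with a level in EL, 15 were highest in macrophages, 13 in T or NK cells, 5 in ciliated cells, 3 in other epithelial cells and 1 in stromal cells. Of 36 in EIS, 12 were highest in T or NK cells, 10 in macrophages, 7 in neutrophils, 6 in ciliated cells and 1 in vascular endothelium, and none was highest in trophoblast-like cells. In EL the intervals of the highest and second type lay apart for GBP1, TAP1 and SLA-DRA1, among others. They overlapped for others, including EIF2AK2, IFI35, IFIT2, IRF2 and PSMB10. The same count over all features was not made, so no background stands beside these counts. The EIS neutrophil gate held only 20 cells, and 3 of them carried 33.1%, 26.0% and 24.2% of its UMIs but none of its IFIT2 or IFIT3 UMIs, so its levels mix unlike cells. Those 3 cells held 33, 12 and 20 IFI30 UMIs and 171, 191 and 114 ISG12 UMIs. Epithelial markers of the gate summed to 2229 CPM and neutrophil markers to 2440 CPM.

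**Figure D1:**
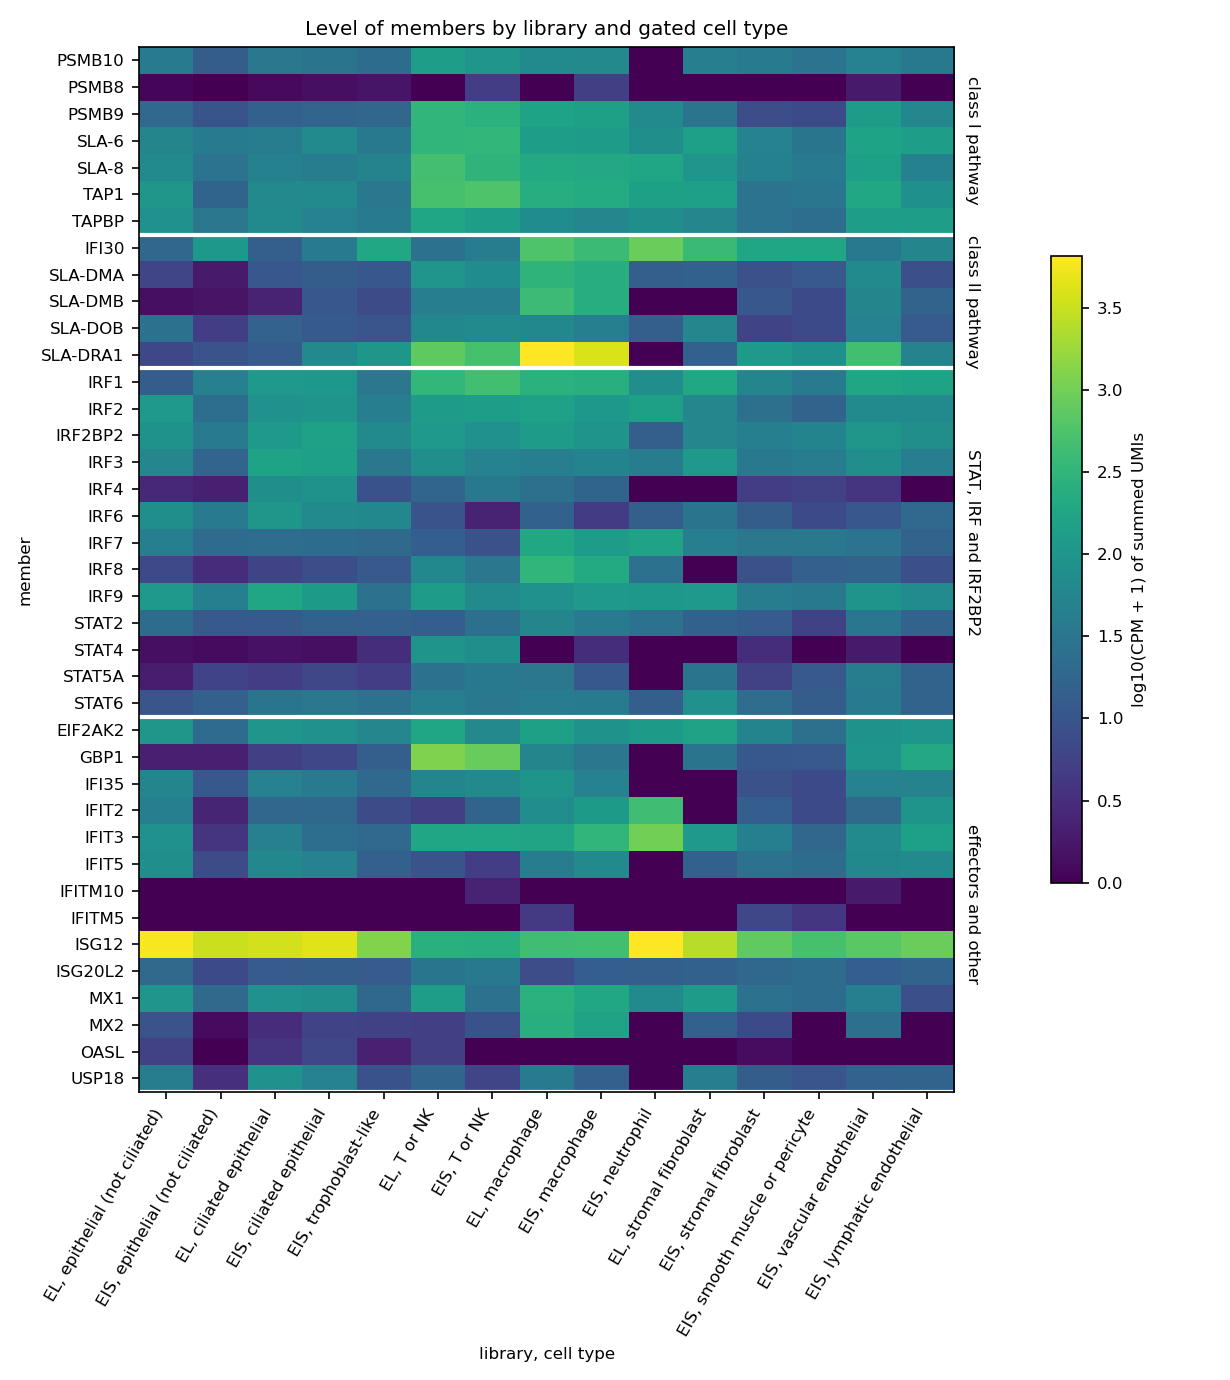
Level of 39 members (rows, grouped by role) in each library and gated cell type (columns), as log10(CPM + 1) of the summed UMIs. ISG12 is bright in epithelial columns of both libraries (5959 CPM in EL and 3285 in EIS), SLA-DRA1 in macrophages (6541 in EL and 3919 in EIS), and GBP1 in T or NK cells (1189 in EL and 846 in EIS).

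Class I pathway members other than PSMB8 were highest in T or NK cells of both libraries. TAP1, a subunit of the peptide transporter, stood at 504 CPM in EL and 572 in EIS T or NK cells, at 239 and 224 in EL and EIS macrophages, and at 61.6 and 62.9 in EL and EIS ciliated cells. PSMB9, an interferon-induced proteasome subunit, followed the same order with 328 CPM in EL and 274 in EIS T or NK cells, 165 in EL and 147 in EIS macrophages, and 14.1 in EL and 16.7 in EIS ciliated cells. SLA-6 and SLA-8, which encode nonclassical class I chains, reached 319 and 466 CPM in EL T or NK cells, against 330.3 and 304 in EIS T or NK cells. SLA class I genes are near-identical copies, so reads may have been split or lost among them. The counting intervals of TAP1, PSMB9 and SLA-8 in T or NK cells lay apart from those of the next highest type in both libraries, and those of SLA-6 in EIS but not in EL. PSMB8, another inducible proteasome subunit, had 7 UMIs in the whole EL library and 24 in EIS, too few for any comparison.

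Of the 5 class II members, all were highest in macrophages in EL, and SLA-DRA1, SLA-DMA and SLA-DMB in EIS. SLA-DRA1, the alpha chain of the DR molecule, stood at 6541 CPM in EL and 3919 in EIS macrophages, against 739 in EL and 509 in EIS T or NK cells, the next highest types. SLA-DMA and SLA-DMB, which load peptide onto class II molecules, stood at 306 and 415 CPM in EL macrophages and at 241 and 239 in EIS macrophages. IFI30, a lysosomal thiol reductase that unfolds antigens, stood at 573 CPM in EL macrophages and 16.9 in EL epithelial cells. In EIS it was highest in the 20-cell neutrophil gate, at 884 CPM, mostly from the 3 cells without IFIT2 or IFIT3 UMIs. In EIS vascular endothelium it was lowest, at 33.7 CPM. Between them stood 397 CPM in macrophages, 189.9 in trophoblast-like cells, 174 in smooth muscle, 173 in stromal cells and 106 in epithelial cells of EIS. SLA-DOB, a chain that modulates peptide loading, differed little between immune types, at 59.8 CPM in macrophages and 58.8 in T or NK cells of EL and at 43.1 and 65.8 in the same types of EIS.

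In the signalling group, STAT4, which acts downstream of interleukin 12, stood at 92.4 CPM in EL and 77.6 in EIS T or NK cells and at no more than 2.16 in any other type. IRF8, a myeloid lineage factor, stood at 319.9 CPM in EL and 212 in EIS macrophages. IRF1 was highest in T or NK cells, at 332 CPM in EL and 455 in EIS. IRF2, which binds the same sites as IRF1, lay between 84.2 and 151 CPM over the epithelial, ciliated, T or NK and macrophage cells of EL, and between 22.7 and 132 CPM over the same types of EIS. EIF2AK2, the RNA-activated kinase PKR, lay between 102 and 176 CPM over those types of EL and between 20.9 and 89.8 CPM over those of EIS. IRF4, best known as a lymphocyte factor, was highest in ciliated cells of both libraries, with 602 UMIs and 77.4 CPM in EL and 200 UMIs and 90.5 CPM in EIS. Its level in the other epithelial cells was 1.64 CPM in EL and 1.16 in EIS. The summed T or NK markers of the ciliated gate were 89.1 CPM in EL and 82.3 in EIS, against 5095 and 4188 in T or NK cells of EL and EIS.

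ISG12, a small protein that interferon induces, supplied 130840 of the 165705 member UMIs of EL epithelial cells and 11312 of the 13445 of EIS epithelial cells. It stood at 5959 CPM in EL epithelial cells and 3604 in EL ciliated cells, against 3285 in EIS epithelial cells and 4245 in EIS ciliated cells. Its highest EIS level, 6435 CPM, was in the 20-cell neutrophil gate, mostly from 3 cells without IFIT2 or IFIT3 UMIs. The same gene was at 260.4 CPM in EL and 242 in EIS T or NK cells, far under the whole libraries at 4879 and 2197 CPM. GBP1, an interferon-induced GTPase, showed the opposite distribution, with 1189 CPM in EL and 846 in EIS T or NK cells and 1.18 and 1.16 CPM in EL and EIS epithelial cells. MX1 and MX2, dynamin-like antiviral GTPases, were highest in macrophages, at 271 and 257 CPM in EL and at 189.7 and 159 CPM in EIS. IFITM5 and IFITM10 were at or near 0, with 2 and 0 UMIs in the whole EL library and 21 and 2 in EIS.

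Position in the genome was read from the RefSeq annotation of Sscrofa11.1 for names and order only, and 39 members matched. Of these, 15 had another member within 3 protein-coding genes. Among them, IFIT2, IFIT3 and IFIT5 neighbour each other on chromosome 14, and MX1 and MX2 on chromosome 13. TAP1, PSMB8, PSMB9, SLA-DMA, SLA-DMB and SLA-DOB lie together on chromosome 7. Neighbours did not share one pattern over cell types: within that chromosome 7 group, TAP1 and PSMB9 were highest in T or NK cells and SLA-DMA and SLA-DMB in macrophages.

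The libraries were compared within the 4 cell types with at least 50 cells in both. UMIs were summed per library and cell type, and each log2 ratio of EL over EIS was set relative to the median gene, the median over all features with at least 20 UMIs. A member is called higher or lower here if it stood at least 2-fold from the median gene with its interval on the same side, a rule of size and not a test across sows.

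In epithelial cells, several antiviral effectors were higher in EL, while IRF1, IFI30 and SLA-DRA1 were lower. Of 35 members with enough UMIs, 7 were called higher, against 12.3% of all features, and 5 lower, against 17.6% of all features. The members called higher were IFIT2, IFIT3, IFIT5, MX2, USP18, TAP1 and SLA-DOB, and those called lower were IFI30, STAT5A, IRF1, STAT6 and SLA-DRA1. The members' median was -0.01 (log2) relative to the median gene. By role, 5 of 12 effectors measured were higher and none lower, 3 of 13 signalling members were lower and none higher, and of 6 class I members TAP1 alone was called.

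In EIS epithelial cells 10 features took 59.1% of all UMIs, with SLPI, a secreted protease inhibitor, alone at 33.2%, against 7.44% for the 10 leading features of EL epithelial cells. The median gene was 2.74-fold higher in EL on the CPM scale (log2 1.46), and 30 of the 35 members were higher in EL before it was subtracted. With TMM factors in place of the median gene, 12 members were called higher. The clusters behind the gate also differed: in EL 1174 cells fell in a cluster led by JAKMIP1, 952 in one led by PON3, 807 in one led by CCK and 610 in one led by CYP26A1. In EIS 247 of the 448 cells, with 2772978 of 3443061 UMIs, fell in one led by UABP-2 and SLPI. A cluster led by the cilia genes CFAP126 and ZMYND10 gave another 392 EL cells of the gate.

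IFIT3, which with its family binds viral RNA, had 1878 UMIs in 1075 EL epithelial cells and 10 UMIs in 10 EIS epithelial cells. These are 85.5 CPM in EL and 2.90 in EIS, a relative log2 ratio of 3.42 (2.54 to 4.49). IFIT2 had 949 UMIs in EL and 5 in EIS, with a ratio of 3.44 (2.21 to 5.07). IFIT5 had 1729 UMIs in EL and 23 in EIS, with a ratio of 2.1 (1.51 to 2.76). All 3 neighbours on chromosome 14 thus stood higher in EL epithelium, with at most 23 UMIs each on the EIS side. USP18, which removes ISG15 from proteins and damps interferon signalling, had 895 UMIs (40.8 CPM) in EL and 8 UMIs (2.32 CPM) in EIS, at 2.68 (1.69 to 3.89). MX2 had 187 UMIs in EL and 1 in EIS, so its ratio of 3.42 has an interval of 0.92 to 8.73, and with every cell thinned to 1000 UMIs the ratio turned to -0.15. With 1 more marker required in the gate it was at 0.89 and not called. With the thinning, IFIT2 at 2.23, USP18 at 2.07 and SLA-DOB at 2.39 were no longer called. MX1, the neighbour of MX2, stood at 98.3 CPM in EL and 20.0 in EIS, and at 0.84 (0.49 to 1.21) relative to the median gene it was not called.

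TAP1 was the only class I member called in epithelium, with 2253 UMIs (103 CPM) in EL and 55 UMIs (16.0 CPM) in EIS and a relative ratio of 1.23 (0.84 to 1.64). PSMB9 was at -0.33 (-0.86 to 0.26), SLA-8 at -0.21 (-0.52 to 0.10) and SLA-6 at -0.97 (-1.23 to -0.70), none of them called. EIF2AK2, at 105 CPM in EL and 20.9 in EIS, was at 0.87 (0.53 to 1.23). IRF2, at 110.2 CPM in EL and 22.7 in EIS, was at 0.83 (0.50 to 1.17). ISG12 was 1.81-fold higher in EL in CPM, less than the median gene, with a relative ratio of -0.60 (-0.63 to -0.57). OASL, an oligoadenylate synthetase-like protein, had 98 UMIs in EL and 0 in EIS. Against a floor of 3 UMIs in EIS it was at least 5.12-fold higher in EL in CPM, and it was not called relative to the median gene.

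On the other side, IRF1 had 274 UMIs (12.5 CPM) in EL and 156 UMIs (45.3 CPM) in EIS epithelial cells, a relative ratio of -3.32 (-3.61 to -3.02). IFI30 had 372 UMIs (16.9 CPM) in EL and 366 UMIs (106 CPM) in EIS, at -4.11 (-4.32 to -3.89). Of the 366 EIS UMIs, 159 came from 24 cells of a cluster led by AQP8, where IFI30 stood at 968 CPM, and 33 came from 1 cell. STAT6, which signals for interleukin 4, stood at 9.11 CPM in EL and 13.9 in EIS, at -2.07 (-2.53 to -1.58). STAT5A had 23 UMIs in EL and 17 in EIS, at -3.69 (-4.66 to -2.70). SLA-DRA1 stood at 5.83 CPM in EL and 8.42 in EIS, at -1.99 (-2.58 to -1.35), far below the 78.6 and 278 CPM of the whole EL and EIS libraries, and with clusters in place of gates it was at -0.97 and not called. The summed macrophage markers of the gate were 8.79 CPM (6 of 10 detected) in EL and 81.3 (7 of 10) in EIS, and their part in the lower class II and IFI30 values was not tested.

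**Figure D2:**
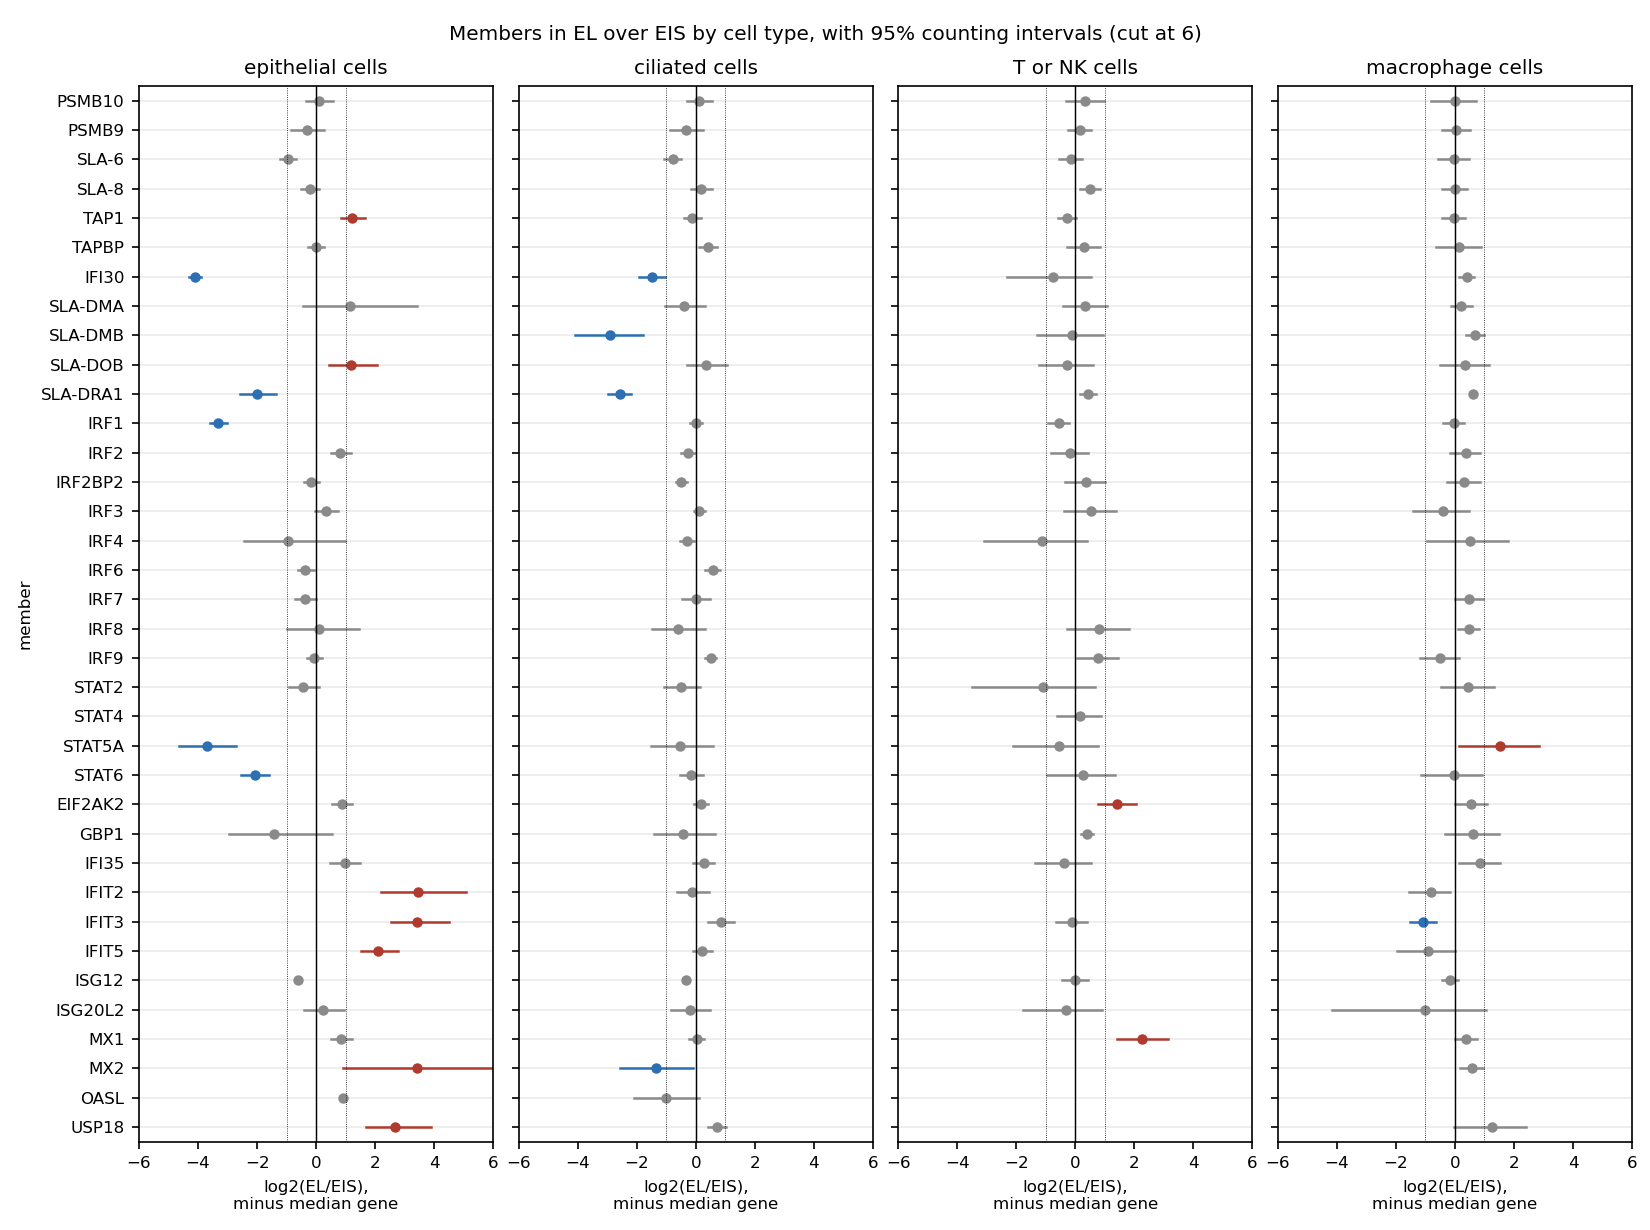
Log2 ratio of EL over EIS for members with enough UMIs, relative to the median gene, in epithelial, ciliated, T or NK and macrophage cells; points are ratios, lines are 95% counting intervals, red marks members called higher in EL, blue those called lower, and OASL in epithelium is drawn at its bound. IFIT2, IFIT3 and MX2 stand near 3.4 in epithelium (3.44, 3.42 and 3.42), while most points of the other panels lie within the dotted 2-fold lines.

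Within EL epithelium the effectors were not spread evenly. The members were left out of the clustering, and the 2 clusters led by CYP26A1, a retinoic acid hydroxylase, held 915 cells and 40.8% of the UMIs of the gate. They carried 94.1% of its MX2 UMIs, 85.8% of USP18, 85.0% of IFIT2, 84.0% of PSMB9, 81.9% of ISG12 and 78.4% of MX1. IFIT3 and IFIT5 did not share this distribution, with 34.7% and 40.8% of their UMIs there, and neither did SLA-8 with 26.4%. ISG12 stood at 11959 CPM in the CYP26A1-led cells, at 1821 CPM in all other EL epithelial cells and at 3285 CPM in EIS epithelial cells. MX1 stood at 189 CPM in the CYP26A1-led cells, 35.9 CPM in other EL epithelial cells and 20.0 CPM in EIS epithelial cells. USP18 stood at 85.7, 9.77 and 2.32 CPM in the same order. These CPM are not relative to the median gene, which was 2.74-fold higher in EL over the whole gate. The step of MX1 from EIS to the other EL cells is smaller than that fold.

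Interferon epsilon (IFNE), a type I interferon made by epithelium of the reproductive tract, had most of its epithelial UMIs in the same cells. It had 448 UMIs in the CYP26A1-led cells, 25 UMIs (1.92 CPM) in all other EL epithelial cells and 8 UMIs (2.32 CPM) in EIS epithelial cells. Over the whole gate IFNE had 473 UMIs in EL and 8 in EIS, a relative log2 ratio of 1.76. HERC5, an ISG15 ligase, stood at 151 CPM in the CYP26A1-led cells, 20.9 CPM in other EL epithelial cells and 9.87 CPM in EIS epithelial cells. Its step from EIS to the other EL cells is also smaller than the 2.74-fold of the median gene. IFIT3 was highest in the EL cluster led by CCK, at 174 CPM, against 70.8 CPM in the larger CYP26A1-led cluster. The clusters led by JAKMIP1 and PON3 held 58.6 and 64.0 CPM of IFIT3, still above the 1.08 CPM of the largest EIS cluster.

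Without the CYP26A1-led cells, an alternative added after the data were seen, 3 members stayed called higher, IFIT2 at 1.34, IFIT3 at 3.45 and IFIT5 at 1.99. USP18 stood at 0.50, TAP1 at 0.68 and SLA-DOB at 0.93 and were no longer called, and MX2 was left with too few UMIs. The members' median was then -0.49. EIS had ISG12-rich epithelial clusters too, at 9952 CPM in 80 cells led by MT1A and 8789 CPM in 24 cells led by AQP8, but IFIT3 stood at 8.36 and 6.09 CPM in them.

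**Figure D3:**
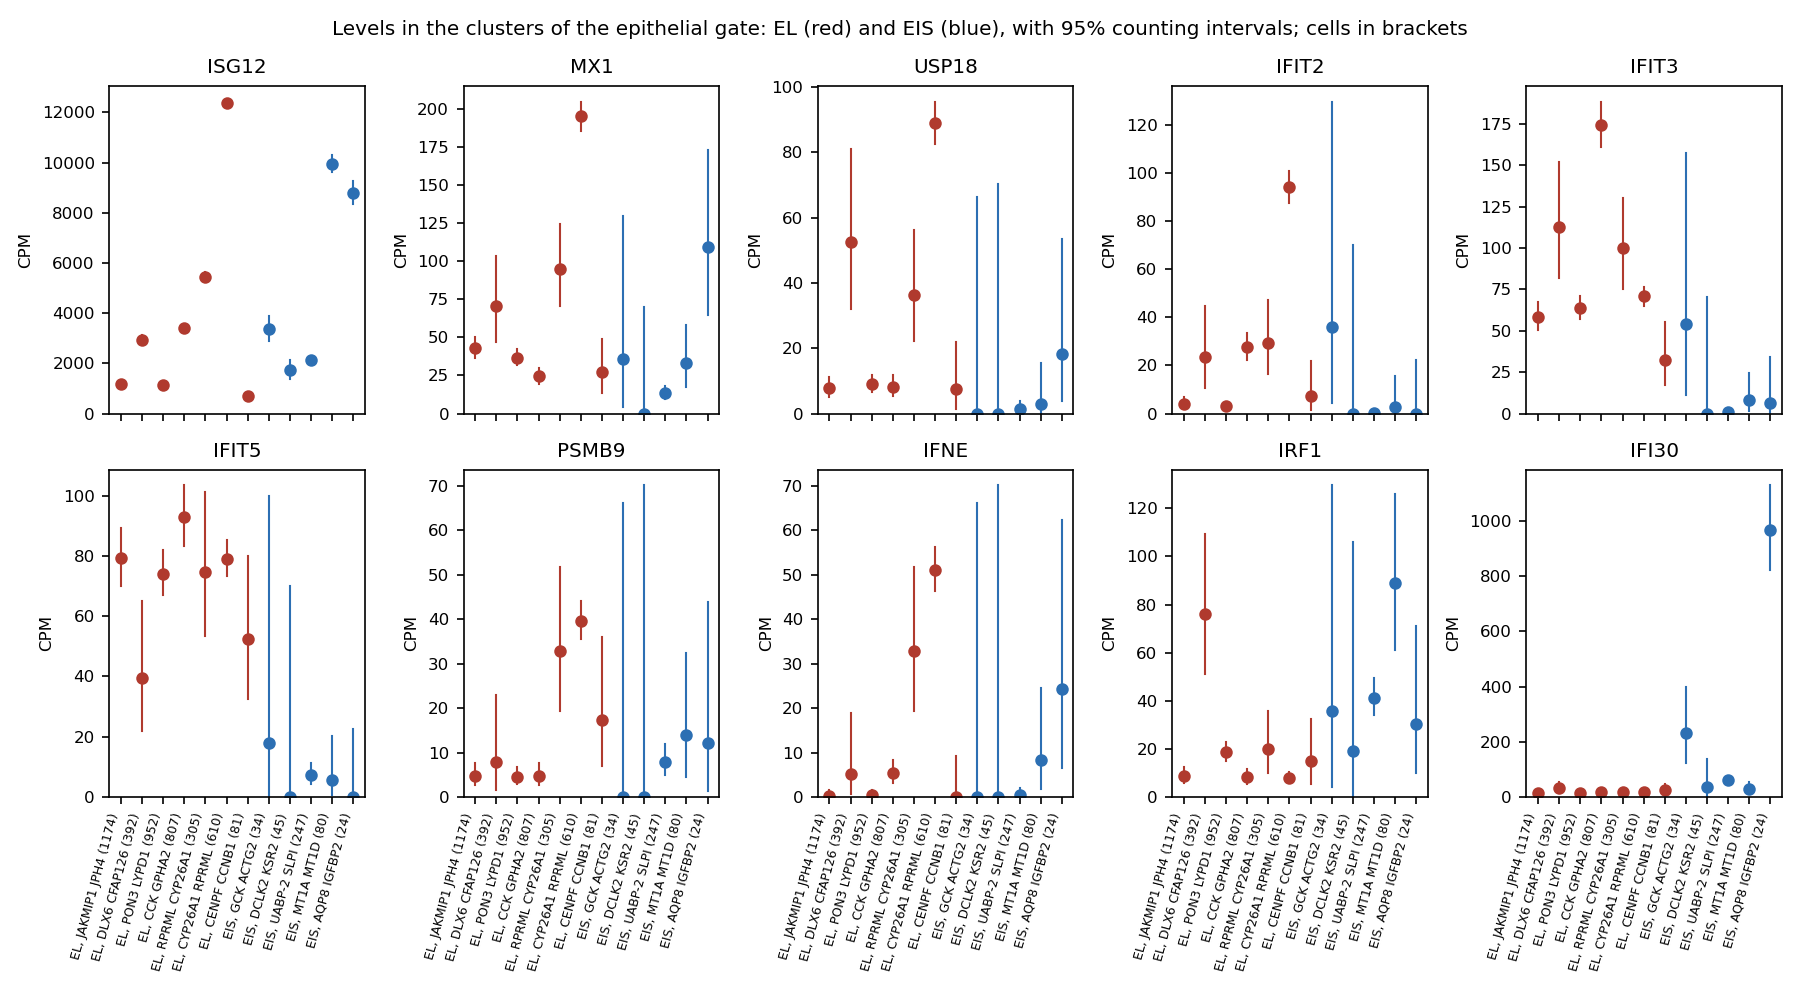
CPM of 9 members and of IFNE in each cluster with at least 20 cells of the epithelial gate, EL clusters in red and EIS clusters in blue, with 95% counting intervals and the number of cells in brackets. ISG12, MX1, USP18, IFIT2, PSMB9 and IFNE peak in the EL cluster led by CYP26A1 (12385 CPM of ISG12), IFIT3 in the one led by CCK (174 CPM), and IFI30 in the EIS cluster led by AQP8 (968 CPM).

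Ciliated cells showed few differences between the libraries outside the class II members. Their median gene was at 0.08 (log2), and of 36 members measured 0 were called higher, against 3.62% of all features, and 4 lower, against 5.91%. MX1 stood at 85.5 CPM in EL and 79.2 in EIS, and IRF1 at 114 in EL and 108 in EIS, both within 0.03 (log2) of the median gene. IFIT3 was at 0.86 and USP18 at 0.72, both under the 2-fold rule. The members called lower were SLA-DMB at -2.90 (-4.09 to -1.79), SLA-DRA1 at -2.57 (-2.96 to -2.19), IFI30 at -1.47 (-1.90 to -1.03) and MX2 at -1.36 (-2.55 to -0.10). MX2 was not called with 1 more marker (-1.21) or without doublet removal (-1.03). SLA-DRA1 had 92 UMIs in EL and 147 in EIS, of which a single cell held 36 in EL and 64 in EIS. Without those cells it was at 7.21 CPM in EL and 37.8 in EIS. The summed macrophage markers of the ciliated gate were 91.0 CPM in EL and 153 in EIS (8 of 10 detected in each), the stromal markers 22.4 in EL and 949.7 in EIS, and the trophoblast markers 13.1 in EL and 543 in EIS. Their part in the class II values was not tested.

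In T or NK cells, MX1 and EIF2AK2 were higher in EL. Of 30 members measured, 2 were called higher, against 3.22% of all features, and 0 lower, against 3.73%. MX1 had 32 UMIs in 19 of 165 EL cells and 20 UMIs in 16 of 366 EIS cells. These are 134 CPM in EL and 26.3 in EIS, a relative ratio of 2.25 (1.40 to 3.13). EIF2AK2 had 42 UMIs (176 CPM) in EL and 47 UMIs (61.8 CPM) in EIS, at 1.41 (0.77 to 2.04). MX1 was at 91.5 CPM in the whole EL library and 36.1 in the whole EIS library, and EIF2AK2 at 100.3 and 49.3 in the same order.

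The clusters of the gate showed this unequally. In the one led by XCL1 and IL7R, MX1 stood at 212 CPM in 91 EL cells and 67.6 CPM in 57 EIS cells. In the one led by CCL5 and KLRK1, MX1 had 0 UMIs in 63 EL cells and 6 UMIs (13.0 CPM) in 257 EIS cells. For those EL cells, 0 of 88356 UMIs allow up to 41.8 CPM. The EL gate held more cells of the first cluster and the EIS gate more of the second. EIF2AK2 had the higher level in EL in both, on few UMIs. In the XCL1-led cluster it was at 204 CPM (26 UMIs) in EL and 81.1 CPM (12 UMIs) in EIS. The intervals overlapped there, at 133 to 299 in EL and 41.9 to 142 in EIS. In the CCL5-led cluster it was at 169.8 CPM (15 UMIs) in EL and 65.0 CPM (30 UMIs) in EIS. HERC5, LGALS9 and TRIM25 of the 12 other interferon-induced genes measured were called higher with them, at 2.57, 1.43 and 1.00. Of all features, 3.22% were higher in this gate. GBP1 was at 0.39 (0.18 to 0.59) and was not called.

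In macrophages, 34 members were measured, with 1 called higher, against 3.93% of all features, and 1 lower, against 5.65%. IFIT3 had 48 UMIs (169 CPM) in EL and 451 UMIs (324 CPM) in EIS, at -1.06 (-1.52 to -0.63). Of the EIS UMIs, 177 came from 26 cells of a cluster led by the neutrophil genes CSF3R and CXCR2, where IFIT3 stood at 8144 CPM. Without that cluster, an alternative added after the data were seen, IFIT3 was at -0.48 and no longer called. In the main shared cluster, led by IL1B and CCL8, it was at 161 CPM in EL and 387 in EIS. STAT5A was called higher, at 1.53 (0.14 to 2.84), on 9 UMIs in EL and 14 in EIS, and was not called with TMM factors (1.39) or without doublet removal (1.23).

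The class II level differed between clusters of the macrophage gate. SLA-DRA1 was higher in EL over the gate, at 6541 CPM against 3919 in EIS, a relative ratio of 0.62 (0.54 to 0.70) that is under the 2-fold rule. In the IL1B-led cluster it stood at 7226 CPM in 63 EL cells and 8159 CPM in 145 EIS cells, the other direction. The cluster led by MRC1 and C1QA, with 106 EIS cells at 389 CPM, had only 5 EL cells. Of 5 feedback genes 3 were called lower, SOCS1, SOCS3 and CISH, against 5.65% of all features. CISH rested on 2 UMIs in EL and 38 in EIS. SOCS1 was at 38.7 CPM in EL and 103 in EIS, and SOCS3 at 94.9 in EL and 332 in EIS. Both inhibit cytokine signalling through STAT proteins. Summed stromal markers in the macrophage gate were 14.1 CPM (2 of 8 detected) in EL and 926 (6 of 8) in EIS, and lymphatic markers 45.7 (2 of 6) in EL and 795 (5 of 6) in EIS. Vascular markers were 513 CPM in EL and 735 in EIS. The gate also took 43 EIS cells of the ACTG2 and DES cluster. The part of these cells in the SOCS1 and SOCS3 values was not tested; EIS stromal cells had 362 CPM of SOCS1 and EIS vascular endothelium 656 of SOCS3.

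Trophoblast-like cells could only be set against the epithelium of their own library. There, 3 of 5 class II members were called higher and none lower, while ISG12, MX1, SLA-6, STAT5A, IRF1 and IRF9 were lower. Of 35 members measured, 8 were called higher, against 19.3% of all features, and 6 lower, against 13.8%, and the members' median was 0.01 relative to a median gene that was itself 1.90-fold higher in trophoblast-like cells. SLA-DRA1 had 485 UMIs in 251 of 801 trophoblast-like cells (103 CPM) and 29 UMIs in 25 of 448 epithelial cells (8.42 CPM), a relative ratio of 2.68 (2.14 to 3.28). SLA-DMA was at 2.59 (0.95 to 4.92) and SLA-DMB at 2.62 (0.65 to 5.72), on 3 and 2 epithelial UMIs. GBP1 was at 2.62, IFIT3 at 1.79, IRF4 at 1.90, IRF8 at 1.48 and MX2 at 3.08, on 1 to 10 epithelial UMIs each. Without doublet removal IFIT3 was at 0.15 and not called, and with every cell thinned to 1000 UMIs 1 member was called higher.

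These levels were low against the cell types that mark the genes. SLA-DRA1 at 103 CPM in trophoblast-like cells compares with 3919 CPM in EIS macrophages and 278 CPM in the whole EIS library. Macrophage markers summed to 324 CPM in trophoblast-like cells and 81.3 CPM in epithelial cells, T or NK markers to 339.8 and 56.3 CPM, and stromal markers to 3609 and 157 CPM, in the same order of cells. All 10 macrophage markers and 9 of the 10 T or NK markers were detected in trophoblast-like cells, against 7 and 4 in epithelial cells. The epithelial gate admitted at most 1 counted marker of any other type and no counted stromal marker, so its low sums are partly set by the gate. The part of these markers in the class II, GBP1 and IRF8 values was not tested. In addition, 49 of the trophoblast-like cells fell in the MRC1-led cluster and 37 in a cluster led by the muscle genes ACTG2 and DES.

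SLA-DRA1 also varied inside the trophoblast-like gate. It stood at 79.2 CPM in 411 cells led by CTSL and PAG6, at 188 CPM in 193 cells led by SMPDL3A and PLBD1, and at 5.61 CPM in 96 cells led by DPPA5 and CA4. SLA-DMA and SLA-DMB had 0 UMIs in the DPPA5-led cells. The whole gate held only 47 and 32 UMIs of them, so these counts of 0 do not show absence. ISG12 followed, at 1426, 1533 and 109 CPM in the same 3 clusters, whereas IFI30 did not, at 188, 187 and 221 CPM.

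**Figure D4:**
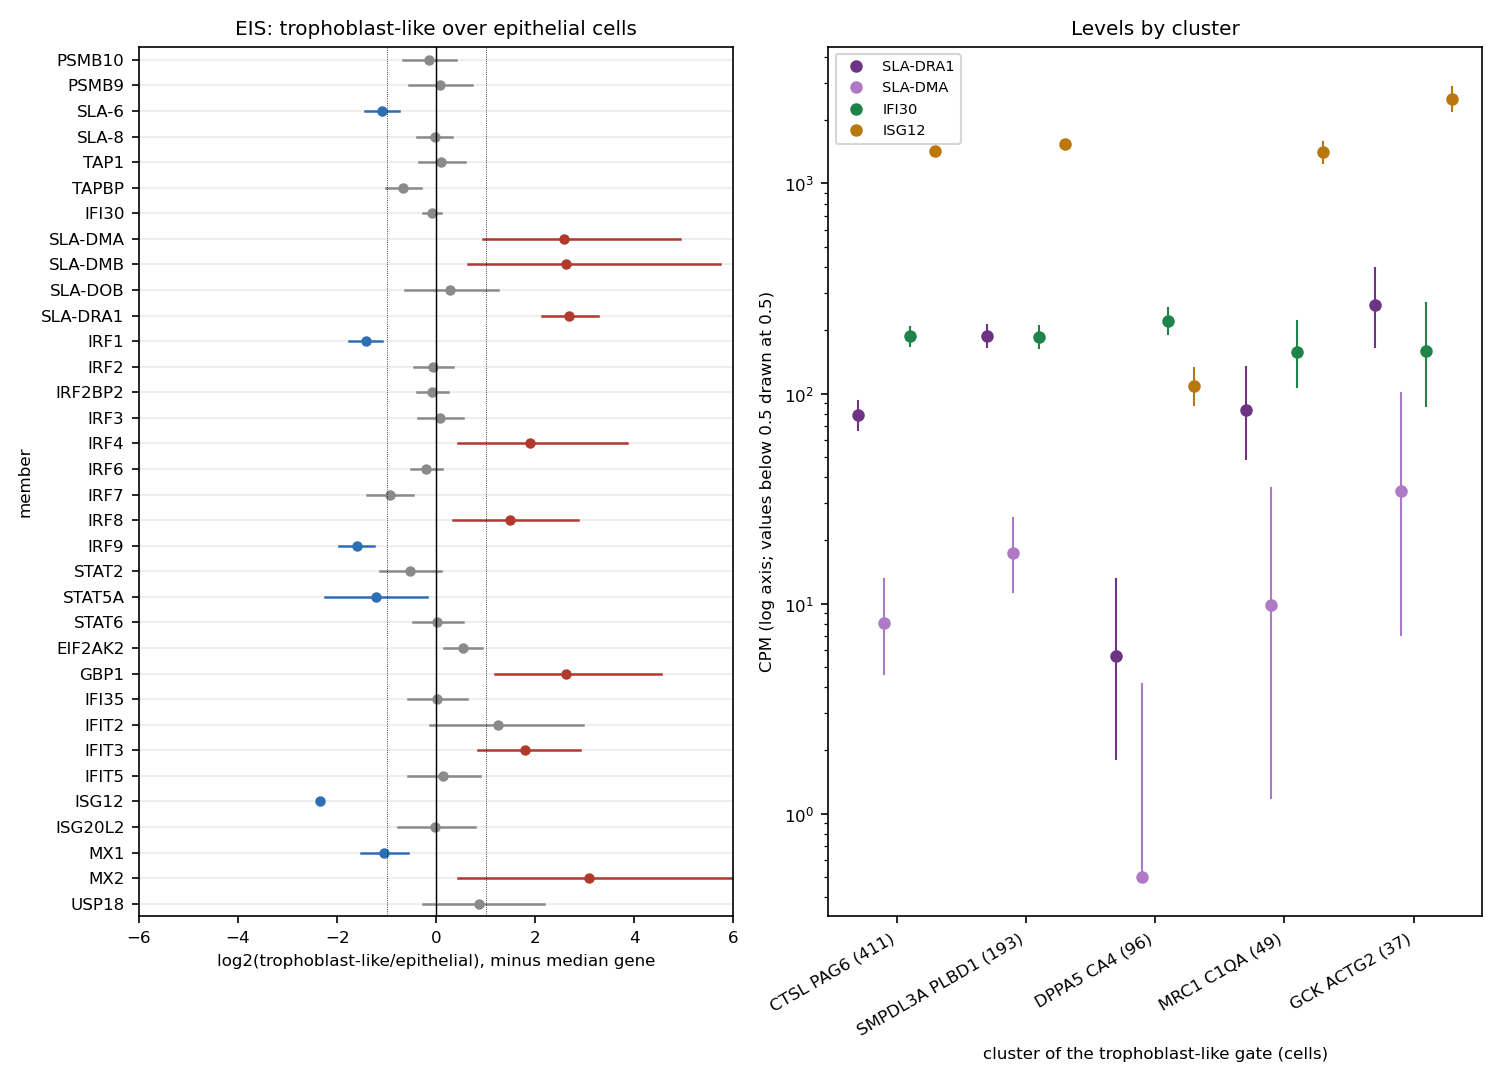
Left, log2 ratio of trophoblast-like over epithelial cells of EIS for members with enough UMIs, relative to the median gene, with 95% counting intervals, red for called higher and blue for called lower. Right, CPM of SLA-DRA1, SLA-DMA, IFI30 and ISG12 in the clusters of the trophoblast-like gate (log axis); the DPPA5-led cluster is low in SLA-DRA1 (5.61 CPM) and ISG12 (109 CPM) but not in IFI30 (221 CPM).

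Lower in trophoblast-like cells were ISG12, with 1220.3 CPM in them and 3285 CPM in epithelial cells, at -2.35 (-2.40 to -2.31), and IRF9, with 26.9 and 43.0 CPM, at -1.60 (-1.96 to -1.25). IRF1 was at -1.42 (-1.75 to -1.09), STAT5A at -1.22 (-2.24 to -0.19), SLA-6 at -1.10 (-1.44 to -0.75) and MX1 at -1.05 (-1.52 to -0.57). In CPM, MX1 was at 18.4 in trophoblast-like and 20.0 in epithelial cells, and with TMM factors it was not called (-0.96). TAP1 at 0.10 (-0.35 to 0.58), PSMB9 at 0.07 (-0.55 to 0.72) and SLA-8 at -0.03 (-0.38 to 0.33) lay near the median gene. Of 7 other class II pathway features measured, 4 were called higher, the proteases CTSB, CTSL and CTSS and the endopeptidase LGMN, which process endocytosed protein. CTSB stood at 1996 CPM in trophoblast-like cells and 61.6 CPM in epithelial cells, and LGMN at 1746 and 108 CPM in the same order. CTSS stood at only 36.6 CPM in trophoblast-like cells, below the whole EIS library at 91.0 CPM and EIS macrophages at 1299 CPM. A further feature named CTSL was called lower.

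Other genes of the pathway were taken from lists, and their calls stand beside 12.3% of all features higher and 17.6% lower in epithelium. There, of 13 other interferon-induced genes measured, CMPK2, HERC5, PARP12 and PML were called higher in EL and TNFSF10 lower. Of 6 sensors of nucleic acid, TLR3 was higher, at 24.5 CPM in EL and 2.03 in EIS, and CGAS and TMEM173 were lower relative to the median gene. In CPM, CGAS stood at 5.88 in EL and 4.36 in EIS. Of 5 feedback genes, SOCS1, SOCS3 and CISH were lower. SOCS3 was at 8.74 CPM in EL and 335 in EIS, a relative ratio of -6.72, whereas SOCS1, at 47.3 CPM in EL and 37.5 in EIS, was lower relative to the median gene alone (-1.12). Of 6 receptors and kinases, IFNGR2, a chain of the interferon gamma receptor, was lower at -2.06 and none was higher. Of 12 other class I genes, PSME1 and RFX5 were higher and CALR, FCGRT, HSPA5 and PSMB5 lower relative to the median gene. Among these 4, HSPA5 alone was lower in EL in CPM, at 783 in EL and 1089 in EIS, while CALR was at 361 in EL and 322 in EIS. In ciliated cells 1 of 5 feedback genes and 4 of 5 other class II genes were lower, against 5.91% of all features. No list gene was higher, against 3.62% of all features. The 4 were CTSB, CTSL, CTSS and LGMN. In EIS trophoblast-like cells CTSB stood at 1996 CPM, CTSL at 3332 and LGMN at 1746. Trophoblast markers of the ciliated gate summed to 13.1 CPM in EL and 543 in EIS, and their part in these values was not tested. In T or NK cells a feature named CTSL alone of the list genes was lower, against 3.73% of all features. In macrophages TLR3 alone of the list genes was higher, at 70.3 CPM in EL and 25.9 in EIS, against 3.93% of all features. In trophoblast-like cells, of 13 other interferon-induced genes, CXCL10, a chemokine for T cells, was higher than in epithelial cells, with 34 UMIs against 1. Those lower included HERC5, LGALS3BP, LGALS9 and TRIM25. Of all features in that comparison, 19.3% were higher and 13.8% lower.

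Among the ligands, interferon gamma (IFNG) had 79 UMIs (332 CPM) in EL and 319 UMIs (420 CPM) in EIS T or NK cells. It had 26 UMIs (5.50 CPM) in EIS trophoblast-like cells, below the 13.6 CPM of the whole EIS library. T or NK markers summed to 339.8 CPM in the trophoblast-like gate, and their part in its IFNG value was not tested. Other ligands were sparse. In the whole libraries IFN-DELTA-8 had 33 UMIs in EL and 9 in EIS, IFN-alpha-6 had 97 in EL and 28 in EIS, and IFNB1 had 0 in EL and 3 in EIS. No delta interferon feature had a UMI in the trophoblast-like cells, where 0 of 4729877 UMIs allow up to 0.78 CPM for each.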

How the data were processed

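Single-cell UMI counts were deposited by the authors as 1 unnormalised matrix per library; the submitters' processing notes name Cell Ranger 2.1.1 and the file headers name cellranger 6.1.0, while a build or annotation release is not given in the sources used here. The matrices held 43302286 UMIs in 10936 EL barcodes and 36069473 UMIs in 8848 EIS barcodes. Cells with at least 500 UMIs and 300 genes were kept, and the highest Scrublet scores (0.8% per 1000 cells) were removed as likely doublets, 933 in EL and 601 in EIS.

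A cell was gated to a type when it held at least 3 distinct markers of that type and led other types by the gate's margin. A marker counted when its UMI share in the cell reached the average share, or 0.5 of it for epithelial markers. Epithelial cells could hold at most 1 counted marker of any other type, and no counted trophoblast-like, stromal or smooth muscle marker. Trophoblast-like and ciliated cells had no such limit. The rule was adjusted after seeing how gated cells fell into clusters. Clusters were made with scanpy 1.11.5 and leidenalg 0.10.2 (2000 variable genes, 30 components, 15 neighbours, resolution 1), with the members left out. UMIs were summed per library and type in Python 3.11.15 (numpy 2.4.6, pandas 2.3.3), and exact Poisson and conditional binomial intervals came from scipy 1.17.1. The 95% level reflects counting error alone. With 1 sow a group no p-value was computed. Ratios were centred on the median of features with at least 20 UMIs, a zero count was set to a floor of 3 UMIs, and a call needed 2-fold with the interval on the same side. The calculation was tested on simulated counts.

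The members and lists were chosen with earlier results of these data known. Named by rule were a core of members in every type and up to 8 called members per direction with at least 50 CPM; other members were named after their values were seen. The alternatives changed scaling, count filter, cell filter, gate, cell types, doublets, free RNA and depth, and 2 leaving out clusters were added after seeing the data. Sequences and coordinates were not used here. Values of some genes that enter the counts are not reported here by name.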

Additional observations from a re-analysis of the deposited data

Results flagged for a closer look

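The ratio of EL over EIS took opposite directions in 2 cell types for 3 members, with a call on each side, and the difference between the types was not tested. IFIT3 was at 3.42 (log2, relative to the median gene) in epithelial cells and at -1.06 in macrophages, where it was at -0.48 and not called without the CSF3R-led cluster and also lost its call with clusters in place of gates, at least 1000 genes per cell, 1 more marker, no count filter, no doublet removal or thinning. MX2 was at 3.42 in epithelial cells, on 1 EIS UMI, where thinning turned it to -0.15, and at -1.36 in ciliated cells, on 16 EL and 11 EIS UMIs, where it was not called with 1 more marker (-1.21) or without doublet removal (-1.03). STAT5A was at -3.69 in epithelial cells and at 1.53 in macrophages, on 9 EL and 14 EIS UMIs, where it was not called with TMM factors (1.39) or without doublet removal (1.23).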

How the results depend on the processing

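No paired analysis was possible because each group has 1 library, and for the same reason no replicate could be left out. Of 156 alternative values of counts and medians, 125 stayed close to the reported value and 31 moved. Of 34 called member values 15 stayed called in every alternative; over 268 alternative values 229 kept their call, 38 lost it and 1 reversed, MX2 in epithelium at -0.15 with cells thinned to 1000 UMIs. In epithelium TMM factors gave 12 members higher, 1 more marker in the gate gave a median of 0.33, and leaving out the CYP26A1-led EL clusters gave 3 higher and a median of -0.49. In ciliated cells clusters in place of gates gave 2 lower and removal of 10% free RNA gave 1 higher. In T or NK cells at least 1000 genes per cell gave a median of 0.63, 1 more marker and clusters gave 2 lower each, and thinning gave 1 lower. In macrophages the higher count was 0 with TMM factors, without doublet removal and with thinning, 2 with at least 1000 genes, 1 more marker or clusters, and 3 without the low-count filter. The lower count was 0 without the low-count filter, with clusters, without doublet removal, with thinning and without the CSF3R-led cluster, 2 with TMM factors or 1 more marker, and 3 with free RNA removed. Trophoblast-like over epithelial cells had 4 higher with 1 more marker, 1 higher with thinning and 2 lower with clusters. Highest-level counts in EIS were 6 for macrophages and 2 for lymphatic endothelium with 1 more marker, and 2 for vascular endothelium with free RNA removed. No share of all features stands beside these alternative counts, and the cause of these changes was not tested. Depth left 10 members untested in T or NK cells and 5 in epithelium, where IFIT2, IFIT3, MX2 and USP18 rest on 1 to 10 EIS UMIs.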
